A study of Mus musculus with 4 samples.

Results

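Type 1 immunity in T cells is organised around T-bet, the T-box transcription factor encoded by Tbx21, and this report follows 10 genes of that programme in gut regulatory T cells. The 10 genes were picked by symbol from the 24061 gene rows of the count table: Tbx21, the cytokine gene Ifng, the chemokine genes Ccl3, Ccl4 and Ccl5, and the receptor genes Il12rb1, Il12rb2, Il18r1, Il18rap and Ifngr1. All 10 were found and all 10 passed the filter on low counts. The cells were CD4+FoxP3+CD62L- regulatory T cells, the effector type, sorted from Peyer's patches, the lymphoid follicles of the small intestine, with about 40000 cells per RNA sample. Of the 4 libraries, 2 are labelled wild type (Maf+/+FoxP3-YFP-cre, called wt 1 and wt 2 here) and 2 are labelled Mafflox/floxFoxP3-YFP-cre (called flox 1 and flox 2). All mice carried the Cre recombinase with its yellow fluorescent reporter at Foxp3, which directs recombination to cells that express Foxp3, were 13 weeks old and were on a C57BL/6 background at backcross generation 5. The labels do not say whether libraries came from separate animals or from pools, so each p-value covers only how far these libraries scatter, and some of that scatter may be technical.

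As background, T-bet and interferon gamma reinforce each other. Interleukin 12 acts through the receptor chains IL-12Rβ1 and IL-12Rβ2, JAK2, TYK2 and STAT4, and interleukin 18 acts through IL-18Rα (Il18r1) and its accessory chain (Il18rap), and together they drive interferon gamma release. Interferon gamma in turn acts through IFNGR1 and IFNGR2, JAK1 and JAK2. Some regulatory T cells use T-bet themselves and then carry the chemokine receptor CXCR3, which lets them follow type 1 cells. CCL3, CCL4 and CCL5 are chemokines that attract other leukocytes, in part through the receptor CCR1.

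The targeted gene went against the labels of a pair of libraries, and this sets how the values below are arranged. Maf had 3071 counts in the library labelled wt 1 and 2975 in the library labelled flox 1, against 40 in the library labelled wt 2 and 15 in the library labelled flox 2. The number in the title thus separates the libraries by Maf level and the genotype label does not. Values are given in the order wt 1, flox 1, wt 2 and flox 2, so that the libraries numbered 1 come first. The comparison by number is one between libraries and not between genotypes. It was chosen with the Maf level in view. Its p-values set the difference between these pairs against the scatter of libraries within them, and are not evidence of what set the pairs apart. The comparison by label is given beside the comparison by number. Gene totals ranged from 19368745 to 24687897 counts per library. Cd4 lay between 919.6 and 997.6 CPM (counts scaled to a common library size, here by the trimmed mean of M values) and Foxp3 between 91.0 and 103.7 CPM, so these 2 markers of the sort were present in all 4 libraries. Of the 6 measured genes of the regulatory CD4 T cell list, 1 was called by number, beside 1.81% of all genes tested. This was Ctla4, an inhibitory receptor of these cells. It had 3342 and 3344 CPM in the libraries numbered 1 and 1627 and 2080 CPM in those numbered 2 (log2 fold change -0.85, SE 0.12, edgeR adjusted p = 0.027).

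The promoters of 4 members are shown because the values below turn on these genes: the lineage factor, its cytokine, and a chain of each of the receptors for interleukin 12 and interleukin 18. Each is the 250 bases before the start site, 5′ to 3′ on the gene's strand, from RefSeq (build GRCm38.p6, which is mm10). Capitals mark a gamma-activated site, the TTCNNNGAA pattern that STAT factors bind, read on both strands.
Tbx21 (chr11:97115332-97115581, minus strand): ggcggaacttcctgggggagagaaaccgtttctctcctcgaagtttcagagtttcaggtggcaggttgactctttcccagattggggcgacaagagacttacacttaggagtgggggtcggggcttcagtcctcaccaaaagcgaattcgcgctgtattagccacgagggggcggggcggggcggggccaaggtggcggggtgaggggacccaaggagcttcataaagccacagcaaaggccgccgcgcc
Ifng (chr10:118440796-118441045, plus strand): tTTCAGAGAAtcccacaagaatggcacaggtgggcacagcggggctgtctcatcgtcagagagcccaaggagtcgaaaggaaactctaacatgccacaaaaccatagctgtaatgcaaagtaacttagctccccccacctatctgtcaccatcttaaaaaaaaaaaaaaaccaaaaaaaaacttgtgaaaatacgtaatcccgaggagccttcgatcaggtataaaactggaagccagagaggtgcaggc
Il12rb2 (chr6:67376189-67376438, minus strand): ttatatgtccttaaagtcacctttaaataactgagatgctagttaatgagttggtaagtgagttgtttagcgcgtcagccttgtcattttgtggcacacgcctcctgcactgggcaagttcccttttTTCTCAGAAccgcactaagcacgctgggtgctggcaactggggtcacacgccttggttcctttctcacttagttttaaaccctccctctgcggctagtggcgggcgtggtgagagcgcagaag
Il18r1 (chr1:40465302-40465551, plus strand): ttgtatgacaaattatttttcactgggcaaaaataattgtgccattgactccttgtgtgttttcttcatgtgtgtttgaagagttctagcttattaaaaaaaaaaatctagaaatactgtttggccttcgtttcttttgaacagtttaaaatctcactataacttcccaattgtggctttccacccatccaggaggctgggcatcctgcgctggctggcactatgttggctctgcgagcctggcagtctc
The pattern was found as TTCAGAGAA in the Ifng window and as TTCTCAGAA in the Il12rb2 window, and 7.02% of all 32851 promoter windows of this length hold it. A T-box match (GGTGTGA, 3.33% of windows), an AP-1 match (TGANTCA, 6.75%) and a half-site of the Maf recognition element (TGCTGAC, 3.81%) were searched on both strands as well. None of these 3 was found in the 9 windows of the 7 members with an entry, while a further start site of Il18r1 has the gamma-activated pattern 2 times in its own window (chr1:40465756-40466005, not shown). A match is a match of letters and no evidence of binding, and a window without one says nothing about the factor.

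Tbx21 was expressed at a low and narrow range and did not follow the Maf level. It had 14.7 and 19.6 CPM in the libraries numbered 1 and 15.8 and 22.2 CPM in those numbered 2. The numbered pairs overlapped, with both libraries labelled flox above both labelled wt. By number the log2 fold change (numbered 2 over numbered 1) was 0.15 (SE 0.23, adjusted p = 0.855, edgeR quasi-likelihood test with Benjamini-Hochberg adjustment over all genes). By label it was 0.45 (labelled flox over labelled wt, SE 0.18), with an unadjusted p of 0.0468 and an adjusted p of 1. Tbx21 lies on chromosome 11 at 97098071 to 97115331 on the minus strand. Within labels its level in the numbered 2 library was 1.08 times that of the numbered 1 library for wt (95% interval of the counts 0.918 to 1.27) and 1.13 times for flox (0.993 to 1.29). Between labels, flox 1 had 1.34 times the level of wt 1 (1.15 to 1.55), and flox 2 had 1.4 times that of wt 2 (1.21 to 1.62). Intervals here and below cover counting error only.

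Across the 10 genes, 0 passed edgeR's quasi-likelihood test by number, where 1.81% of the 13022 genes tested did. Of the calls over all genes, 0.399% were higher and 1.41% lower in the libraries numbered 2, as shares of the genes tested. At an unadjusted p under 0.05 there were 3 (Il12rb1, Il12rb2 and Il18r1), all with lower values in the libraries numbered 2, where 13.6% of all genes passed that mark in either direction. DESeq2 called 1 of the 10, Il18r1, where it called 608 of 13257 genes, and limma-voom called 0, where it called 201 of 13022. By label 0 of the 10 passed edgeR's test, as against 0.00768% of all genes (a single gene). By label 0 passed by DESeq2 (14 of 12548 genes did) or limma-voom (0 of 13022 did). Of the 10, only Tbx21 had an unadjusted p under 0.05 by label, where 1.98% of all genes did. The CPM of the numbered pairs did not overlap for 6 of the 10 genes, or 60%, with 4 lower and 2 higher in the libraries numbered 2, and 45.2% of all genes were separate in this way (22.5% lower and 22.7% higher). The labelled pairs did not overlap for 2 of the 10 (20%, against 27% of all genes). The median log2 fold change by number was 0.01 over the 10 genes and 0.01 over all genes, and the members' values went different ways. By label the medians were 0.28 over the 10 genes and 0.00 over all genes.

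**Figure D1:**
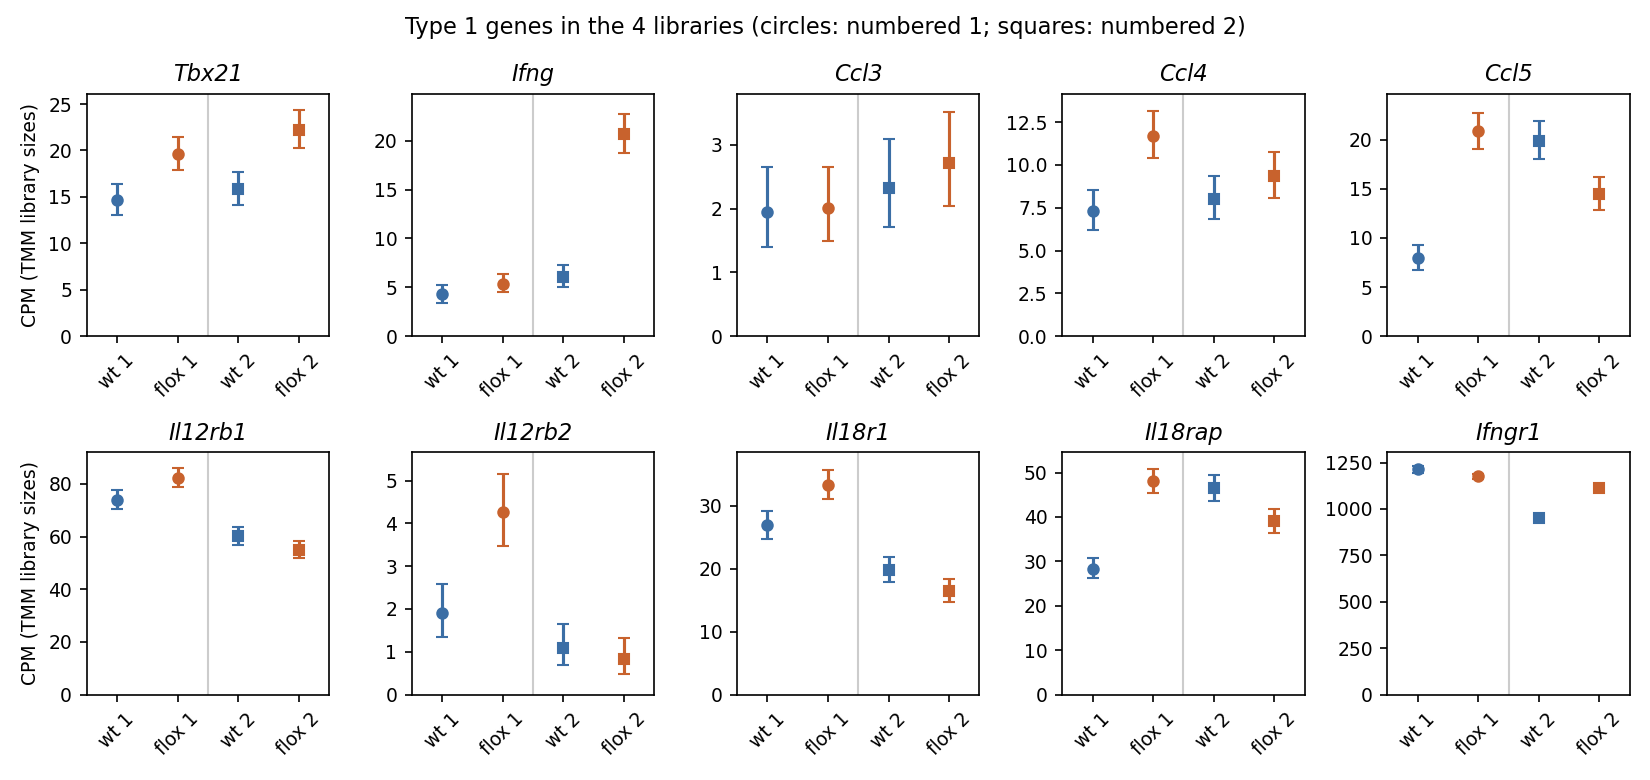
CPM of the 10 type 1 genes in each library, with blue for the label wt, orange for the label flox, circles for libraries numbered 1 and squares for those numbered 2; bars are exact 95% Poisson intervals of the counts and cover counting error only. Il12rb1, Il12rb2, Il18r1 and Ifngr1 sit lower in both squares than in both circles, Ifng stands apart in the library labelled flox 2 at 20.7 CPM, and Ccl5 and Il18rap are lowest in the library labelled wt 1.

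The cytokine gene Ifng, on chromosome 10 at 118441046 to 118445892, had its high value in a single library. Ifng had 4.28 and 5.37 CPM in the libraries numbered 1 and 6.08 and 20.7 CPM in those numbered 2. The pairs did not overlap, yet 3 of the 4 libraries lay close together and the library labelled flox 2 stood far above them. Within wt the numbered 2 library had 1.42 times the level of the numbered 1 library (95% interval 1.07 to 1.89), and within flox 3.85 times (3.16 to 4.72). By number the log2 fold change was 1.47 (SE 0.60, edgeR adjusted p = 0.395). Without the library labelled flox 2 it was 0.34 (SE 0.41, adjusted p = 0.775). Without the library labelled wt 2, which leaves flox 2 alone on that side, it was 2.1 (SE 0.27) and passed the test with an adjusted p of 0.00691. In such fits the lone library is assumed to vary like the others. A predicted gene, Gm49751, overlaps 336 exonic bases of Ifng on the same strand, so the division of reads between them is uncertain if the authors' annotation holds both. Gm49751 was not among the genes tested.

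The library with the high Ifng value was also the one with high heat shock transcripts. The list of 12 heat shock and handling genes summed to 5785, 6479, 4772.5 and 11887 CPM in the order given above. Not every gene of the list was highest in flox 2. Fos had 1501, 1493, 652 and 954 CPM, Egr1 had 379, 431, 342 and 224 CPM, and Atf3 was highest in flox 1. The other genes of the list, the chaperone genes and Jun, were highest in flox 2. Of the chaperone genes, the inducible Hspa1a had 35.5, 80.9, 103.1 and 892 CPM. Among 9376 genes with a mean of at least 5 CPM, the gene whose profile over the 4 libraries lay closest to that of Ifng was Dnajb1, a co-chaperone of the same response. Its centred log2 CPM differed from that of Ifng by at most 0.18 in any library. Dnajb1 had 215.3, 265.3, 270.6 and 830.9 CPM. The next closest were Trf, which encodes the iron carrier transferrin (0.21), and Paip1, a cofactor of translation (0.27). For Tbx21 the closest profiles were those of S100a13 (0.02), Ttll4 (0.05) and Rragb (0.06). Likeness over 4 libraries is a description, and the part of the heat shock difference in the Ifng value was not tested.

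**Figure D2:**
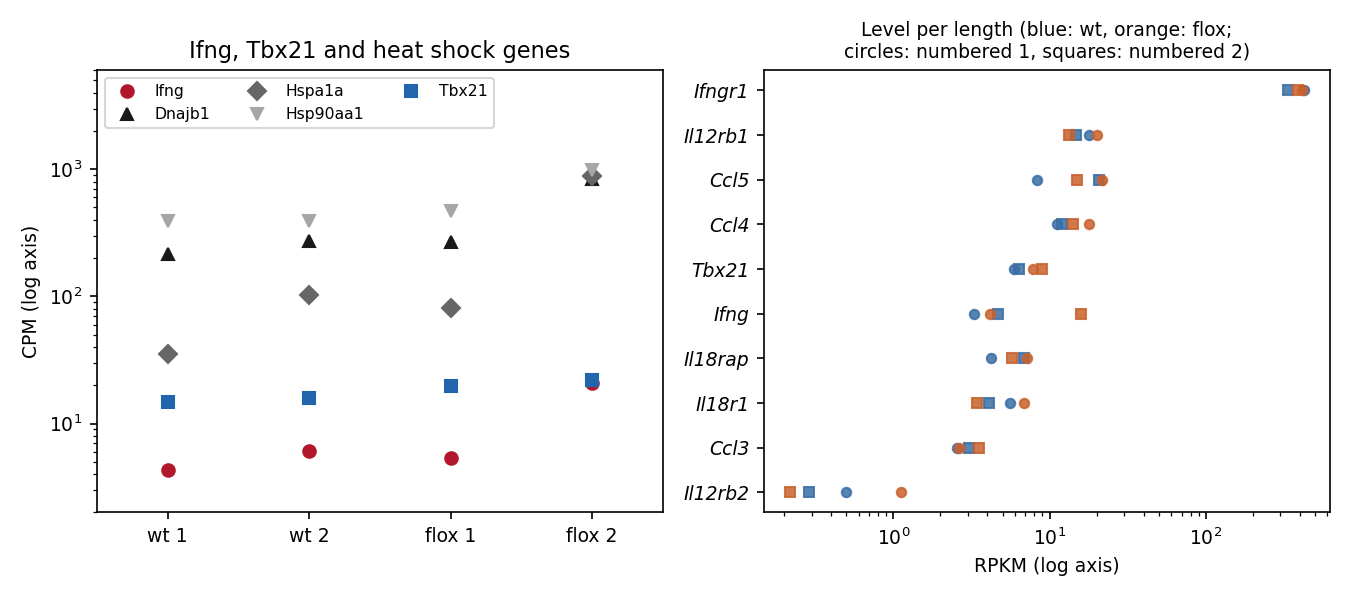
The left panel plots the CPM of Ifng, Tbx21 and 3 heat shock genes in each library on a log axis; the library labelled flox 2 is highest for Ifng (20.7) and for Dnajb1 (830.9), while Tbx21 lies between 14.7 and 22.2. The right panel plots the level per length of the 10 genes (RPKM, log axis, blue for wt and orange for flox, circles for numbered 1 and squares for numbered 2), with Ifngr1 far above the rest and Il12rb2 below all others.

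The 3 chemokine genes lie within one cluster on chromosome 11 (Ccl5 at 83525778 to 83530518, Ccl3 at 83647844 to 83649355 and Ccl4 at 83662584 to 83664683) and did not share a profile. Ccl3 was near the lower end of detection, with 1.94 and 2.01 CPM in the libraries numbered 1 and 2.32 and 2.71 CPM in those numbered 2. Its numbered pairs were separate, but the log2 fold change of 0.35 was smaller than its SE of 0.43 (edgeR adjusted p = 0.808), and counts of 40 to 56 per library limit what can be seen. Ccl4 had 7.29, 11.7, 8.01 and 9.33 CPM. Its 2 libraries labelled flox lay above the 2 labelled wt, and the log2 fold change was -0.13 by number (SE 0.29) and 0.46 by label (SE 0.26, adjusted p = 1). Ccl5 had 7.93, 20.9, 19.9 and 14.5 CPM, so that the library labelled wt 1 was the lowest and the pairs overlapped both by number and by label. Within wt the numbered 2 library had 2.51 times the Ccl5 level of the numbered 1 library (2.09 to 3.03), and within flox 0.694 times (0.599 to 0.802). By number its log2 fold change was 0.25 (SE 0.49, edgeR adjusted p = 0.894), and -0.28 without the library labelled wt 1.

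The summed levels of 4 lists of markers of other cells were also lowest in the library labelled wt 1, though not every gene of them was. The 11 genes of CD8 T and natural killer cells, which make much Ccl5, summed to 106, 288, 508.7 and 317.6 CPM. The granzyme gene Gzma was the most abundant of them (48.5, 221.5, 419.5 and 210.3 CPM). Neither gene of the CD8 chains was lowest in the library labelled wt 1. Cd8a had 8.56, 11.02, 5.19 and 9.19 CPM, lowest in wt 2. Cd8b1 had 12.74, 16.59, 17.11 and 12.09 CPM, lowest in flox 2. The natural killer receptor gene Ncr1, which defines those cells, had 1 and 3 counts in the libraries numbered 1 and 0 in both numbered 2. Of the 9 genes of this list that were tested, 1 was called higher by number (Klrb1c) and 0 lower, beside 0.399% and 1.41% of all genes. Myeloid and dendritic cell genes (10 measured) summed to 12.9, 102.4, 64.1 and 57.3 CPM and epithelial genes (9) to 153.5, 372.3, 364.3 and 282.2 CPM. The 7 B cell genes summed to 47.0, 87.0, 56.6 and 48.7 CPM. Gene by gene, the library labelled wt 1 held the lowest value for 5 of 11 CD8 T and natural killer cell genes, 6 of 10 myeloid, 8 of 9 epithelial and 2 of 7 B cell genes, and the library labelled flox 2 for 3, 3, 1 and 4. The part of such transcripts in the Ccl5 and Il18rap values was not tested, and in bulk RNA fewer cells of a type and less RNA per cell cannot be told apart.

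The receptor chains for interleukin 12 and the ligand-binding chain for interleukin 18 had lower values in both libraries numbered 2, though none passed edgeR's test after the filter on low counts. Il12rb1, on chromosome 8 at 70808449 to 70821424, had 74.0 and 82.3 CPM in the libraries numbered 1 and 60.2 and 55.1 CPM in those numbered 2. The pairs did not overlap, and the numbered 2 library had 0.813 times the level of its partner within wt (0.753 to 0.877) and 0.67 times within flox (0.622 to 0.721). The log2 fold change was -0.44 (SE 0.11) with an edgeR adjusted p of 0.137 and an unadjusted p of 0.00579. Without the low-count filter the edgeR adjusted p was 0.0393, so whether Il12rb1 passes depends on the filter. Il12rb2, the chain that confers signalling, had 1.90 and 4.26 CPM against 1.09 and 0.822 CPM, that is 39 and 104 counts against 22 and 17. Its log2 fold change of -1.69 (SE 0.58, adjusted p = 0.273) was the largest in size of the 10 but rested on few counts, and it was -0.99 without the library labelled flox 1. The Il12rb2 gene on chromosome 6 (67291318 to 67376188, minus strand) shares 1519 exonic bases with Serbp1 on the opposite strand, so its counts are uncertain without strand. Serbp1 itself differed little between libraries, with 290 to 299 CPM.

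Il18r1 and Il18rap encode the paired chains of one receptor and are neighbours on chromosome 1 (40465552 to 40500854 and 40515362 to 40551705), but their values went different ways. Il18r1 had 26.9 and 33.3 CPM in the libraries numbered 1 and 19.8 and 16.4 CPM in those numbered 2, with no overlap. Its numbered 2 library had 0.737 times the level of its partner within wt (0.647 to 0.84) and 0.494 times within flox (0.434 to 0.562). The log2 fold change by number was -0.73 (SE 0.18, edgeR adjusted p = 0.129). DESeq2 gave the same direction with an adjusted p of 0.0318, and edgeR without the low-count filter gave an adjusted p of 0.0186. Whether Il18r1 passes thus depends on the tool and on the filter. Il18rap had 28.4 and 48.1 CPM against 46.5 and 39.1 CPM, with overlapping pairs, the library labelled wt 1 lowest, and a log2 fold change of 0.16 (SE 0.26, adjusted p = 0.864). Without the library labelled wt 1 its log2 fold change was -0.17.

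Ifngr1, the ligand-binding chain of the interferon gamma receptor, was by far the most abundant of the 10 genes. It had 1213 and 1175 CPM in the libraries numbered 1 and 950.4 and 1114 CPM in those numbered 2. The pairs did not overlap, but the log2 fold change was only -0.21 (SE 0.09, edgeR adjusted p = 0.405), and the library labelled wt 2 was the lowest. Ifngr1 lies on chromosome 10 at 19591949 to 19610229. As reads per kilobase of exon scaled to library size (RPKM, computed here from the GENCODE exon length) its mean over the 4 libraries was 391, with 334 to 426 as the range. Il12rb1 (mean 16.5 RPKM), Ccl5 (16.4) and Ccl4 (13.8) came next, and their ranges overlapped. Tbx21 (7.27 RPKM), Ifng (7.02), Il18rap (6.00) and Il18r1 (5.0) followed, again with overlapping ranges, and Ccl3 (2.93 RPKM) overlapped with Il18r1. The order by mean is not one of separate groups. Ifng ran from 3.3 RPKM to 15.9 in the library labelled flox 2, and overlapped Il12rb1, Ccl5, Ccl4 and Ccl3. Tbx21, at up to 8.92 RPKM, overlapped Ccl5, which began at 8.26. Il12rb2 was lowest at 0.532 RPKM, and its range of 0.217 to 1.12 lay below that of Ccl3 (2.54 to 3.54).

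**Figure D3:**
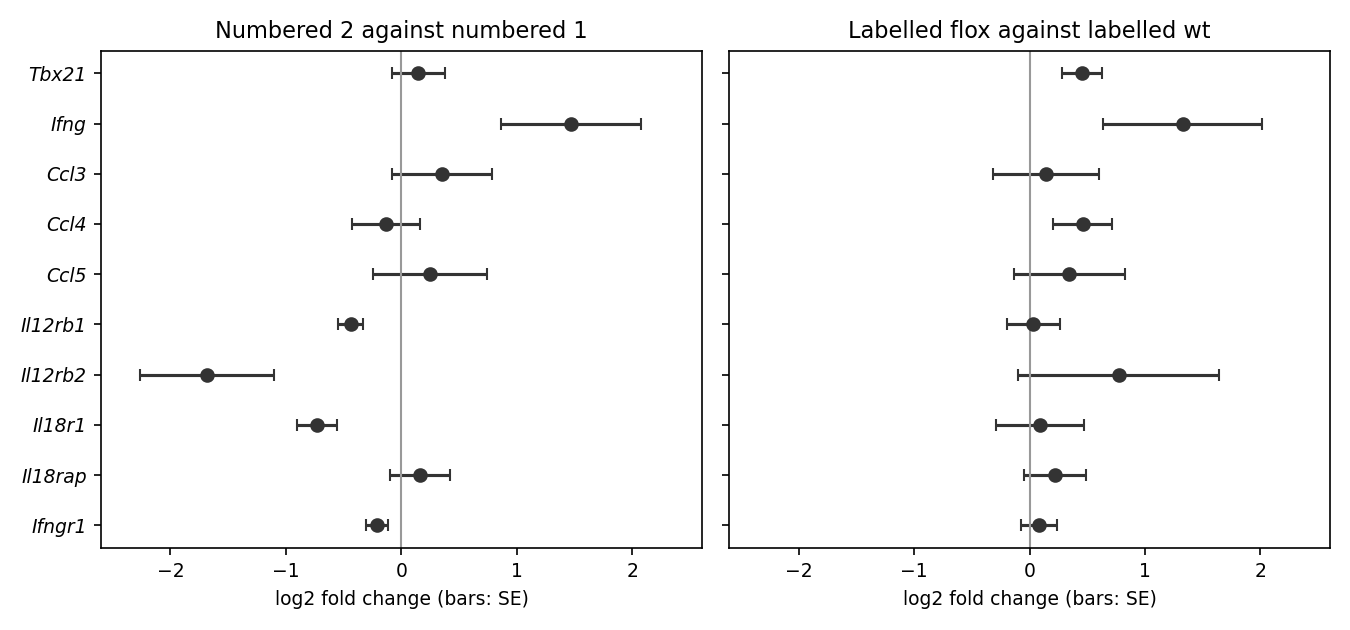
Log2 fold change of each of the 10 genes from edgeR, with bars of 1 SE, by number on the left and by label on the right; no gene passed an adjusted p of 0.05 in either. Il12rb2 (-1.69) and Ifng (1.47) are the extremes by number, and the receptor genes Il12rb1 and Il18r1 have the values farthest from 0 relative to their SE.

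Calls were found among the partners of these genes. Of 61 other genes of the pathway in 6 lists, 54 were tested, and by number 7 were lower and 2 higher in the libraries numbered 2 (16.7%, beside 1.81% of all genes). The numbered pairs were separate for 37 of the 54 (68.5%, beside 45.2%). The lists were chosen with earlier results of these data known, so these shares describe the lists and are no test of enrichment. By label 0 were called by edgeR (1 at an unadjusted p under 0.05, a mark that 1.98% of all genes passed), by DESeq2 or by limma-voom. In the receptor relay of interferon gamma (6 genes, 2 lower and 0 higher), Ifngr2, the signalling chain, had 96.3 and 81.7 CPM in the libraries numbered 1 and 40.4 and 46.0 CPM in those numbered 2. It fell by 1.04 on the log2 scale (SE 0.13, edgeR adjusted p = 0.017, and 0.121 without the library labelled wt 1). Jak2, the kinase that both this receptor and the interleukin 12 receptor use, had 550.2 and 557.9 CPM against 309.4 and 290.0 CPM, and fell by 0.89 (SE 0.08, adjusted p = 0.00647, and 0.0649 without the library labelled wt 1), so both calls were lost without that library. The pairs of both genes were far apart, and the ligand-binding chain Ifngr1 did not pass, though the difference between the chains was not tested. Jak1, Socs1 and Ptpn2 were not called.

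No gene of 2 further lists, the interferon gamma targets and the ligands and relay of interleukins 12 and 18, was called by edgeR. Among 12 tested interferon gamma target genes, 0 passed edgeR's test by number, beside 1.81% of all genes. At an unadjusted p under 0.05 there were 3, a mark that 13.6% of all genes passed. The median log2 fold change of the 12 was 0.16 beside 0.01 for all genes. Those with the smallest p were higher in both libraries numbered 2, without passing. Gbp2, a guanylate-binding GTPase, had 110.6 and 96.8 CPM against 135.5 and 138.9 CPM (log2 fold change 0.40, adjusted p = 0.125). Psmb9, an immunoproteasome subunit, had 94.4 and 100.7 against 131.4 and 121.5 CPM, and Irgm1, an immunity-related GTPase, had 56.9 and 56.2 against 82.4 and 71.6 CPM. For ligands and relay of interleukins 12 and 18, 0 of 8 tested genes passed (1 at an unadjusted p under 0.05). Stat4 had 346.8 and 340.0 CPM against 293.4 and 282.9 CPM (log2 fold change -0.25, adjusted p = 0.217), and Tyk2 and Myd88 differed less. The interleukin 12 subunit gene Il12a, named after its values were seen, had 0 counts in all 4 libraries, which allows at most 0.123 to 0.148 CPM. Of all 24061 gene rows, 5486 were at 0 in this way. The ligand gene Il18 was detected at a low level, with 14 to 27 counts per library.

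Receptors of related cytokines included 2 calls. The list of the interleukin 12 and interleukin 1 receptor families held 8 genes, among them a cytokine subunit that is not a receptor. Of these 8 genes, 2 fell and 0 rose by edgeR's test, where 1.41% of all genes fell and 0.399% rose. Il23r, which pairs with Il12rb1 in the interleukin 23 receptor and lies next to Il12rb2 on chromosome 6 at 67422932 to 67491855, had 8.41 and 9.46 CPM against 1.09 and 0.387 CPM, a fall of 12.1-fold (adjusted p = 0.027). Il1r1, the interleukin 1 receptor, had 14.3 and 8.68 CPM against 1.93 and 0.822 CPM (adjusted p = 0.0421). Both calls were lost without the library labelled wt 1, that of Il23r also without flox 1 and that of Il1r1 also by limma-voom (adjusted p up to 0.114 for Il23r and 0.215 for Il1r1 over the alternatives).

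Among the other chemokines and the receptors of CCL3, CCL4 and CCL5, Ccr1 and Ccl1 passed the test by number, where 1.81% of all genes did. Ccr1 had 13.2 and 16.2 CPM against 0.396 and 0.919 CPM, a 22.1-fold fall (log2 fold change -4.47, SE 0.42, edgeR adjusted p = 0.00809) that passed under all 9 alternatives run. None of the 3 chemokine genes Ccl3, Ccl4 and Ccl5 passed, though the difference between receptor and ligands was not tested. In the same list of 7 genes, of which 6 were tested, 1 rose: Ccl1, the ligand of CCR8, had 0.583 and 0.696 CPM against 6.67 and 6.72 CPM, 10.4-fold higher (adjusted p = 0.0146, and 0.0963 without the library labelled wt 1).

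Among T-bet partners and type 1 effector genes, 15 were tested, with 1 higher and 2 lower by number, beside 0.399% and 1.41% of all genes. The higher one was Cxcr3, the chemokine receptor that T-bet is known to activate, with 69.1 and 56.7 CPM against 113.9 and 100.5 CPM. It rose 1.7-fold (log2 fold change 0.77, SE 0.13, edgeR adjusted p = 0.044) while Tbx21 itself had overlapping values, though the difference between these genes was not tested. The Cxcr3 call was lost by limma-voom, without the library labelled flox 1 and without wt 1. On leaving out 1 library its log2 fold change ran from 0.63 to 0.92. The lower genes included Zeb2, a repressor that acts with T-bet in effector cells, with 4.96 and 5.0 CPM against 0.346 and 0.0484 CPM (adjusted p = 0.0407). Zeb2 passed in 5 of 9 alternatives and had a single count in the library labelled flox 2.

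**Figure D4:**
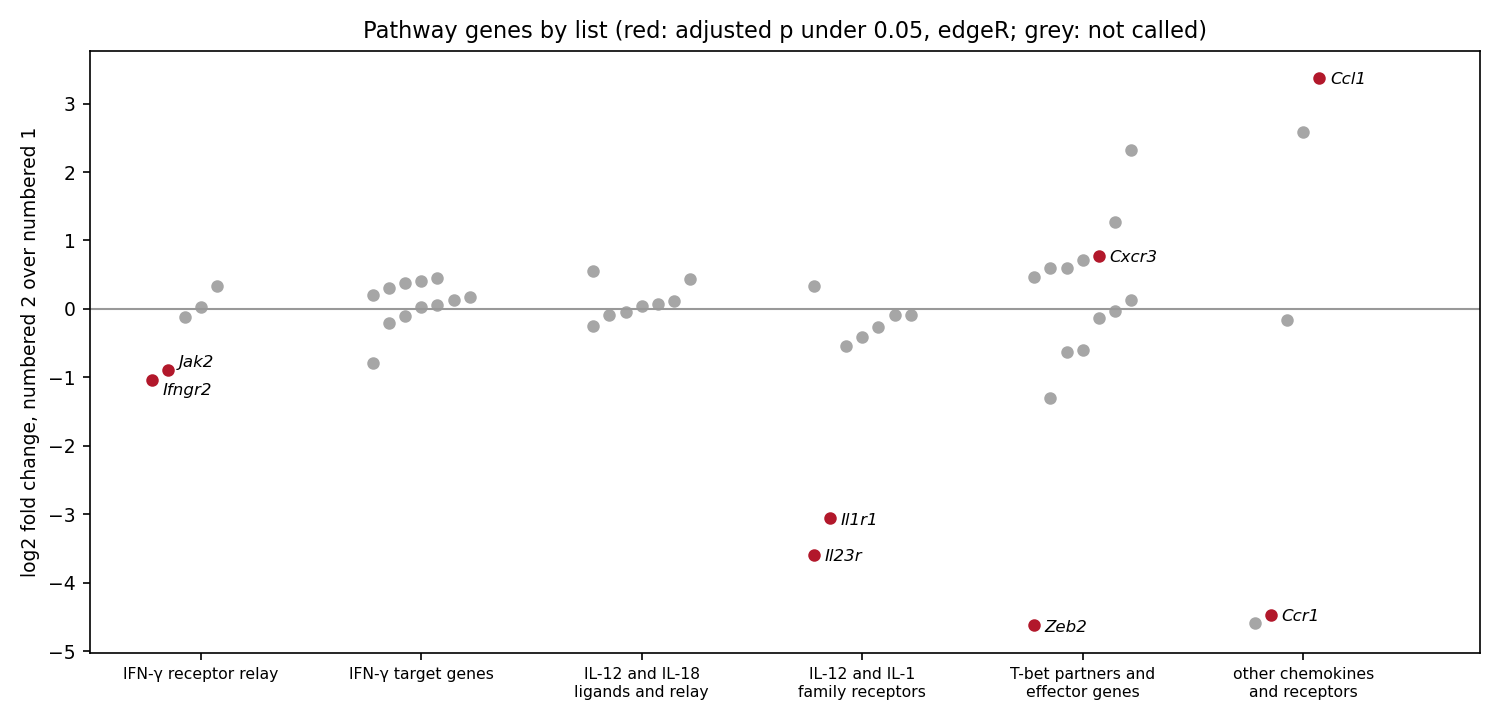
Log2 fold change by number of tested pathway genes other than the 10, grouped by list, with genes that are not reported here left out; red points passed edgeR's test (adjusted p under 0.05) and are named, grey points did not. Ccr1, Il23r, Il1r1 and Zeb2 lie near or below -3, Ifngr2 and Jak2 near -1, Cxcr3 at 0.77 and Ccl1 at 3.37.

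In the authors' filtered table of normalized values 8 of the 10 genes had a row, and the log2 ratio of the numbered pairs computed from it differed from the fitted value by at most 0.0019. Ifng had 91.1, 115.7, 131 and 440.9 there and Il18r1 had 572.1, 716.2, 425.3 and 351.4, the same order of libraries as in the CPM.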

How the data were processed

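The authors deposited raw counts per gene symbol for 4 libraries (24061 gene rows; 5 counter summary rows, 66.6% to 67.2% of each column, were left out). The second table, as deposited by the authors, holds a signal: counts scaled to near a common library size for a filtered set of genes, by a method that no header or label states. The submitters' processing notes name TopHat2 (2.1.1), HTSeq (0.6.1), edgeR (3.14) and build mm10. For settings, annotation and strand the state is the same: not given in the sources used here. Gene models are from GENCODE M21 on the same build, promoters from RefSeq.

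Tests of the counts used edgeR 4.0.16 under R 4.3.3 (filterByExpr, leaving 13022 genes; TMM; robust glmQLFit and glmQLFTest; Benjamini-Hochberg, threshold 0.05), by the number in the titles and, in a separate fit, by the genotype label. No library was moved between labels. The edgeR, DESeq2 and limma-voom fits were also run on simulated counts, drawn with the dispersions fitted to these same libraries. The outcome is not given here. With 2 libraries against 2 an exact permutation test cannot go below p = 0.333, so none was run. Standard errors were taken as the size of the log2 fold change over the square root of F. Poisson and binomial intervals are exact at 95%, and a count of 0 allows 3 counts. The members and lists were chosen with earlier results of these data known. Named were the 10 members, Maf, in each list the called genes or else the 3 with the smallest p, and the 3 genes, predicted genes left out, closest in profile to Tbx21 and to Ifng (log2 of CPM plus 0.1). Some genes of these lists are counted but not reported here by name. Alternatives were DESeq2 1.42.0, limma-voom (limma 3.58.1), RLE scaling, no filter, a second term in the model and leaving out each library.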

Additional observations from a re-analysis of the deposited data

Results flagged for a closer look

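For a pair of genes, Ccl5 and Il18rap, the numbered libraries differed in opposite directions within the labels, each past counting error. Ccl5 in the library labelled wt 2 was 2.51 times its level in wt 1, and in flox 2 it was 0.694 times its level in flox 1. Il18rap was at 1.64 times in wt 2 over wt 1 (95% interval 1.47 to 1.82) and at 0.812 times in flox 2 over flox 1 (0.741 to 0.889). The difference between labels was not tested, since the model with both terms and their interaction has as many coefficients as libraries. For both genes the library labelled wt 1 was the lowest of the 4.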

How the results depend on the processing

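Each label and each number has 2 libraries, and counts are low for Il12rb2 (17 to 104 per library) and Ccl3 (40 to 56). By number, genes called came to 236; DESeq2 called 608, no filter gave 589, and leaving out 1 library gave 46 to 525, lowest without wt 1. Of the 10 members 0 were called; DESeq2 called 1 (Il18r1), no filter gave 2 (Il18r1 and Il12rb1), and leaving out 1 library gave 0 to 1. Of the other pathway genes 9 were called, against 19 by DESeq2, 20 with no filter and 3 to 17 on leaving out 1 library, lowest without wt 1 (Ccr1 passed throughout); these pathway alternatives were added after seeing the data. By label, 1 gene was called, against 14 by DESeq2, 0 by limma-voom, 2 with no filter and 0 to 0 on leaving out 1 library, and 0 of the 10 members under every alternative run. With the number as a replicate block, 1 gene and 0 of the 10 members were called by label. Deviations of same-numbered libraries correlated at 0.266 across genes; the numbers are not shown to pair samples. Over the alternatives run on single members, the log2 fold change by number kept its direction and side of the threshold in 81, passed it in 4 and changed sign in 5; by label these were 81, 0 and 9, and every change of sign came on leaving out 1 library. By number, values over these fits ran from -0.43 to 0.25 for Ccl4, -0.28 to 1.11 for Ccl5, -0.17 to 0.59 for Il18rap and -0.12 to 0.37 for Tbx21. By label they ran from -0.087 to 0.345 for Ccl3, -0.17 to 1.16 for Ccl5, -0.079 to 0.267 for Ifngr1, -0.28 to 0.30 for Il12rb1, -0.85 to 1.51 for Il12rb2, -0.50 to 0.51 for Il18r1 and -0.092 to 0.624 for Il18rap. The cause was not tested.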
